A study of Mus musculus with 6 samples.

Results

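A set of 9 genes of the transforming growth factor beta (TGF-beta) pathway were followed in sorted mouse lung mesenchyme after hedgehog blockade. They are the ligand genes Tgfb1, Tgfb2 and Tgfb3, the receptor genes Tgfbr1, Tgfbr2 and Tgfbr3, the signal transducer gene Smad3, and the feedback genes Smad7 and Pmepa1. The 9 genes were taken by symbol from count files that hold 48397 symbols, and all 9 passed the low-count filter that left 16198 genes for testing. Every library came from pups heterozygous for the reporter allele PdgfraEGFP, in which green fluorescence marks cells using the gene of the PDGF receptor alpha. Pregnant dams were injected in the abdomen shortly before birth with control IgG (3 libraries) or with 5E1, an antibody against hedgehog proteins (3 libraries). At postnatal day 8, lungs of the pups were dissociated and live green cells were collected by flow sorting for RNA sequencing. Nothing in the labels tells if libraries stand for single pups, litters or pools, or how many dams each group had. The p-values therefore cover the spread among these libraries, which may be technical. Because the dam was the treated animal, libraries that share a dam are not independent replicates of the treatment. Differences between litters were not tested apart from the antibody, as no label gives the litter.

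TGF-beta is secreted in a latent form, held in the matrix by binding proteins, and is freed by integrins and other activators. Free ligand joins the type II receptor to the type I receptor, which phosphorylates SMAD2 and SMAD3, and these then enter the nucleus with SMAD4. The pathway switches on its own inhibitors, among them Smad7 and Pmepa1. In the growing lung it is known for driving matrix production and contractile gene expression in fibroblasts, and both too little and too much of it disturb the formation of alveoli.

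The IgG libraries held between 16958433 and 28405457 reads in genes, the 5E1 libraries between 18857199 and 34318583. Hedgehog target genes served as a check of the antibody, and 7 of 8 were lower in 5E1, with a log2 fold change of -2.19 for Ptch1 and -2.37 for Hhip. Of the marker lists, that of lung mesenchyme had the highest summed level in every library. It came to 45848 to 64045 CPM in IgG and 57964 to 103601 CPM in 5E1. CPM are read counts scaled to library sizes that were adjusted by the trimmed mean of M-values. Markers of other cells were present at low levels. The 20 leukocyte markers summed to 158 to 178 CPM in IgG and 346 to 537 CPM in 5E1, and 14 of the 19 tested were called higher. The sums ran from 7.06 to 7.70 and from 11.7 to 14.9 CPM for platelet markers, from 167 to 197 and from 180 to 371 CPM for endothelial markers, from 472 to 728 and from 525 to 1576 CPM for epithelial markers, and from 47.4 to 88.8 and from 127 to 249 CPM for mesothelial markers, IgG first. Called higher were 3 of 4 tested platelet, 3 of 15 endothelial, 2 of 16 epithelial and 2 of 6 mesothelial markers, and 1 endothelial marker was called lower. Of the 14 lung mesenchyme markers, 4 were called higher and 3 lower. Over all genes tested, 12.1% were called higher and 11.1% lower. The leukocyte, platelet and mesothelial sums of the groups did not overlap, and the endothelial and epithelial sums did. The highest endothelial, epithelial and mesothelial sums were all in 5E1 replicate 2. No listed marker was at 0 in all 6 libraries. The part of these cells in the results was not tested. In bulk samples, fewer cells of a type and less RNA per cell cannot be told apart.

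Among the 9 genes, Tgfb2 and Tgfb3 fell and Tgfbr3 rose after 5E1 by edgeR's quasi-likelihood test at an adjusted p under 0.05, and the other 6 did not pass. That is 3 of 9 called, 1 higher and 2 lower, where 23.2% of all genes tested were called, 12.1% higher and 11.1% lower, so the count among the 9 is near the background. Over all genes, 1966 were called higher and 1791 lower, which became 1312 and 3274 with library size alone. The CPM of the groups did not overlap for 4 of the 9 genes (Tgfb2, Tgfb3, Tgfbr2 and Smad3), against 42.2% of all genes tested. The median log2 fold change was 0.11 over the 9 genes and 0.00087 over all genes tested. The summed level of the 9 genes was 1983, 2031 and 1885 CPM in IgG and 1819, 1975 and 2098.5 CPM in 5E1, so the groups overlapped in the sum.

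**Figure D1:**
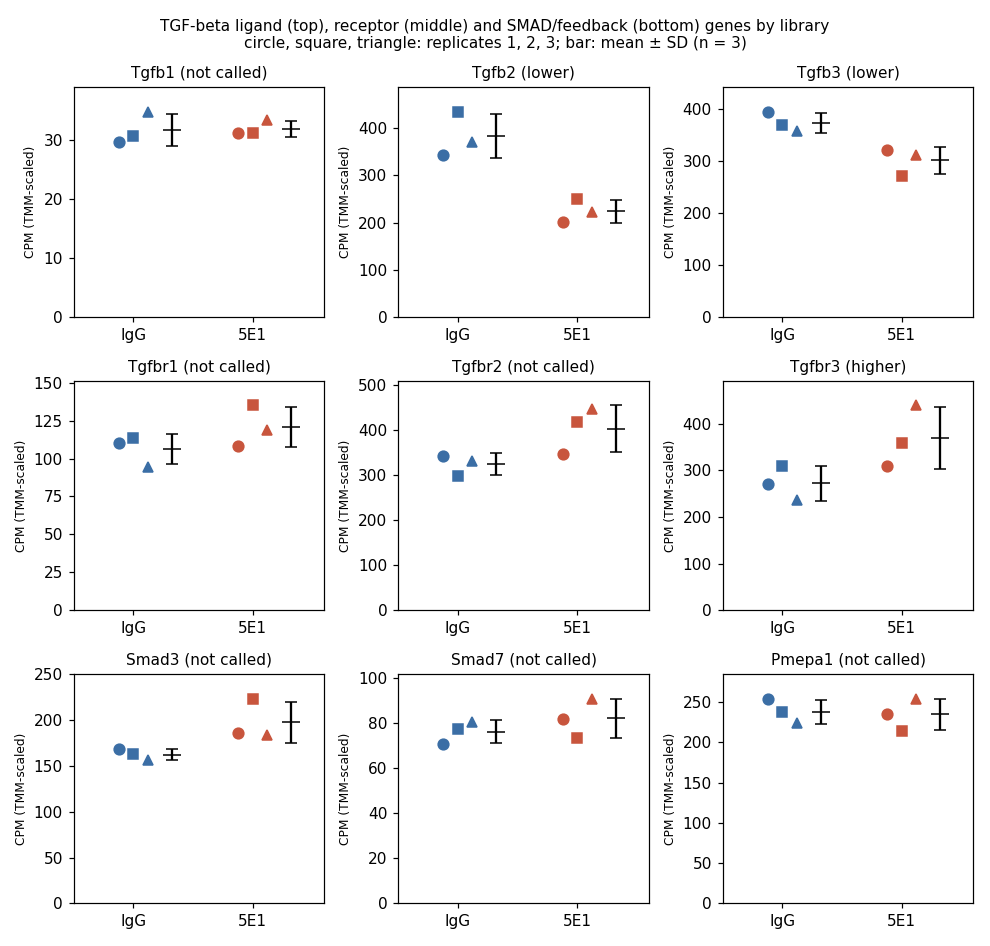
Level of each of the 9 genes in CPM on library sizes scaled by trimmed mean of M-values, 1 point per library, with the mean and SD of 3 libraries beside the points. Tgfb2 shows the widest gap, with IgG libraries between 344 and 434 CPM and 5E1 libraries between 201 and 249 CPM. Tgfb1, Tgfbr1, Tgfbr3, Smad7 and Pmepa1 overlap between groups.

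The ligand genes did not move alike. Tgfb2, on chromosome 1 of GRCm38 (186622792 to 186705989, minus strand), measured 344, 434 and 371 CPM in IgG replicates 1 to 3 and 201, 249 and 222 CPM in 5E1 replicates 1 to 3. Each 5E1 library lay below each IgG library. The level changed by -41.5%, or -0.77 on the log2 scale (SE 0.12, edgeR adjusted p 0.00115), and it ranked 542 of all genes by p. Tgfb2 was called lower in all 15 alternative settings, with log2 fold changes from -0.92 to -0.68, and it alone among the 9 genes kept its call throughout.

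Tgfb3, the ligand gene whose loss in mice delays lung development, lies on chromosome 12 (86056745 to 86079041, minus strand). It measured 394, 368 and 356 CPM in IgG and 321, 271 and 311 CPM in 5E1. These groups too did not overlap, but the gap between them was narrower than that of Tgfb2. By edgeR, the log2 fold change came to -0.31 (SE 0.10, adjusted p 0.0442). The call ended in 9 of 15 alternatives, among them without IgG replicate 1 (adjusted p 0.172), 2 (0.0906) or 3 (0.0727), without 5E1 replicate 2 (0.0958) or 3 (0.0771), and with the replicate number as a block (0.0687), while the sign was negative in all 15.

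Tgfb1, which is widely used by leukocytes and platelets, lies on chromosome 7 (25687002 to 25705077, plus strand). It was the least abundant of the ligand genes, with 550 to 1049 reads per library. It measured 29.7, 30.8 and 34.8 CPM in IgG and 31.2, 31.2 and 33.5 CPM in 5E1, so the 5E1 values lay inside the IgG range. The log2 fold change was 0.01 (95% interval -0.21 to 0.22, edgeR adjusted p 0.964). This level sat beside leukocyte and platelet marker sums that were higher in each 5E1 library than in any IgG library.

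Sequences before the start sites of Tgfb2 and Tgfb1 are shown because these ligand genes differed in response, the first called lower and the second not called. Each line gives the 250 bases before the RefSeq start site, read from the GRCm38.p6 promoter table in the direction of transcription, at chr1:186705990-186706239 (minus strand) for Tgfb2 and chr7:25686752-25687001 (plus strand) for Tgfb1. Capitals mark matches, on either strand, to a SMAD box (CAGAC), a GLI consensus (GACCACCCA), a cAMP response element (TGACGTCA), an AP-1 element (TGAGTCA), the TATA box (TATAAA) or an E-box (CACGTG). The last 2 motifs were chosen after the sequences had been seen.
Tgfb2: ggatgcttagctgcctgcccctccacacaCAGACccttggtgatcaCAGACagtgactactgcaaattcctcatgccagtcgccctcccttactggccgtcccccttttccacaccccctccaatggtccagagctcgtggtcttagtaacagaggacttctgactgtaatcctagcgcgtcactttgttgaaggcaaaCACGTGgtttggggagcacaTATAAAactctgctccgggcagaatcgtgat
Tgfb1: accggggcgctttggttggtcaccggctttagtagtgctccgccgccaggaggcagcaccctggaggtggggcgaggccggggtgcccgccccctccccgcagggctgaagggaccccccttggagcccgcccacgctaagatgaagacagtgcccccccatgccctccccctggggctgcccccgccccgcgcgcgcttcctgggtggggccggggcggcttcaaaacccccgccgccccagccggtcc
The Tgfb2 window held 2 SMAD boxes, with first bases 221 and 204 bases before the start, 1 TATA box beginning 31 bases before it, and 1 E-box, and no match overlapped another. Its G and C content was 53.6%. The Tgfb1 window held none of the 6 motifs and had a G and C content of 75.2%. Neither held the GLI consensus. Over 32851 windows of the same length in the table, 42.2% held a SMAD box, 12.4% a TATA box, 6.02% an E-box, 4.46% an AP-1 element, 1.55% a cAMP response element and 0.225% the GLI consensus. Of the other members, Tgfbr1 (with 2 listed starts), Tgfbr2 and Smad3 were read from the table. Tgfb3, Tgfbr3 and Pmepa1 had no window in it, and Smad7 was left out of the search. Across the 4 windows of Tgfbr1, Tgfbr2 and Smad3 the only matches were 1 SMAD box at the second Tgfbr1 start and 1 at Tgfbr2.

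Levels of different genes were compared per kilobase of annotated exon. In IgG, Tgfb3 led at 110.1 ± 5.64 CPM per kilobase (SD, n = 3), followed by Tgfb2 at 66.1 ± 8.02, and Tgfb1 was lowest of all 9 genes at 6.30 ± 0.531. In 5E1, Tgfb3 still led at 89.0 ± 7.78, while Tgfb2 stood at 38.7 ± 4.16 and Tgfb1 at 6.34 ± 0.259. Tgfb2 had rank 2 of the 9 genes in IgG and rank 5 in 5E1. In IgG, Pmepa1 (48.5), Tgfbr3 (41.5) and Tgfbr2 (39.6) came next in CPM per kilobase, then Smad3 (29.3), Smad7 (16.8) and Tgfbr1 (16.3). In 5E1, Tgfbr3 (56.4), Tgfbr2 (49.2) and Pmepa1 (47.8) stood above Tgfb2, and Smad3 (35.6), Tgfbr1 and Smad7 (18.1) below it. Neighbours in these orders overlapped between libraries for Pmepa1 with Tgfbr3, Tgfbr3 with Tgfbr2 and Smad7 with Tgfbr1 in IgG. They overlapped for Tgfbr3 with Tgfbr2, Tgfbr2 with Pmepa1, Tgfb2 with Smad3 and Tgfbr1 with Smad7 in 5E1.

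Shares within a library do not depend on how libraries are scaled to each other. Of the length-scaled ligand reads, Tgfb2 made up 32.7%, 39.5% and 36.3% in IgG and 25.5%, 33.2% and 28.05% in 5E1. The highest 5E1 library, replicate 2, lay just above the lowest IgG library, so the groups overlapped (difference -7.22 percentage points, two-sided exact permutation p = 0.2). Tgfb3 made up 60.4% ± 3.44 in IgG and 66.3% ± 4.02 in 5E1 (SD, n = 3 each), also overlapping (exact permutation p = 0.2). Tgfb1 made up 3.25%, 3.22% and 3.92% in IgG and 4.56%, 4.79% and 4.85% in 5E1. Its groups did not overlap, and the exact permutation p of 0.1 is the smallest that 3 against 3 libraries allow, so no share could pass 0.05. Of the receptor reads, Tgfbr1, Tgfbr2 and Tgfbr3 took 16.7% ± 0.653, 40.8% ± 4.39 and 42.5% ± 3.84 in IgG and 15.01% ± 1.75, 39.7% ± 0.698 and 45.3% ± 2.44 in 5E1 (SD, n = 3 each). All 3 receptor shares overlapped between groups, with exact permutation p-values of 0.2, 0.7 and 0.4.

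**Figure D2:**
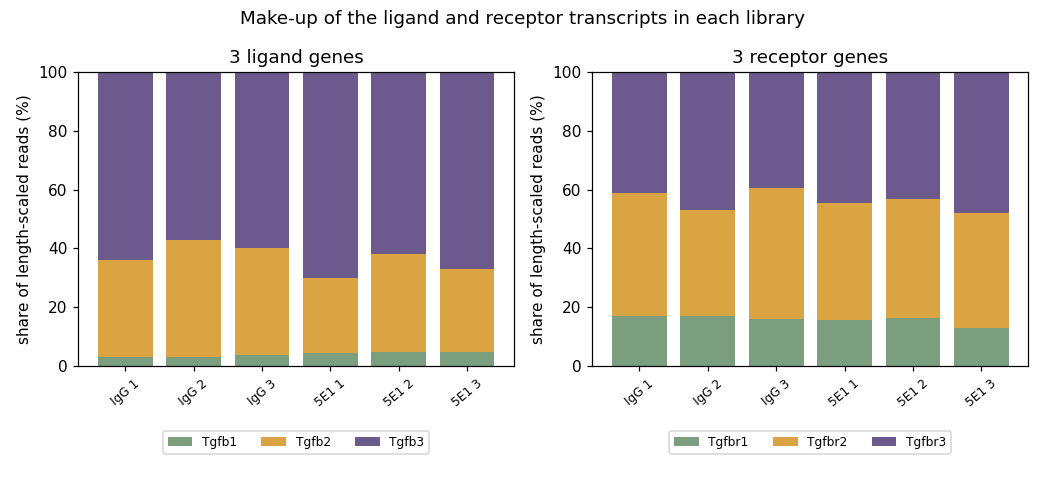
Share of each gene, in percent, in the length-scaled reads of the 3 ligand genes (left) and the 3 receptor genes (right), 1 stacked bar per library. Tgfb3 is the largest ligand share in every library, Tgfb1 the smallest at 3.22% to 4.85%, and each of the 3 receptor shares overlaps between groups.

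The 3 receptor genes all had positive log2 fold changes in the fit of 6 libraries and in all 15 alternatives, but 1 passed the test. Tgfbr3 encodes betaglycan, a co-receptor that presents ligand to the type II receptor and matters most for TGF-beta 2. It lies on chromosome 5 (107106570 to 107289629, minus strand). It measured 270.3, 310.03 and 235 CPM in IgG and 309, 359 and 439.6 CPM in 5E1. The lowest 5E1 library, replicate 1, lay just under the highest IgG library, replicate 2. By edgeR, the log2 fold change came to 0.44 (SE 0.14, adjusted p 0.0472). The call ended in 8 of 15 alternatives, among them without IgG replicate 1 (0.125) or 3 (0.165), without 5E1 replicate 2 (0.0843) or 3 (0.168), with the replicate block (0.0775) and with library size alone (0.0974). Of its annotated exon bases, 297 are shared with an unnamed gene model on the same strand.

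Tgfbr2, the type II receptor kinase that binds ligand first, lies on chromosome 9 (116084293 to 116175360, minus strand). It measured 343, 298 and 332 CPM in IgG and 346, 418 and 446 CPM in 5E1. The groups did not overlap, though 5E1 replicate 1 lay close to IgG replicate 1. The log2 fold change was 0.31 (95% interval 0.06 to 0.56) with an edgeR adjusted p of 0.0683. It was called without 5E1 replicate 1 (0.0216), by DESeq2 (0.0322), when low counts were kept (0.0317) and with a filter at 5 CPM (0.0444). Tgfbr1, the type I receptor kinase that phosphorylates the receptor SMADs, lies on chromosome 4 (47353222 to 47414931, plus strand). It measured 111, 113 and 94.7 CPM in IgG and 109, 135 and 119 CPM in 5E1, and the groups overlapped. Its log2 fold change was 0.19 (95% interval -0.04 to 0.42, edgeR adjusted p 0.221), and no alternative called it.

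Smad3, the receptor-activated SMAD that carries much of the TGF-beta signal to DNA, lies on chromosome 9 (63646767 to 63757994, minus strand). It measured 168, 162 and 157 CPM in IgG and 186, 223 and 183 CPM in 5E1. Every 5E1 library lay above every IgG library, and 5E1 replicate 2 stood highest. The log2 fold change was 0.28 (95% interval 0.07 to 0.50) with an edgeR adjusted p of 0.0571. It was called by DESeq2 (0.0350), when low counts were kept (0.0487) and with the filter at 5 CPM (0.0355), and not when any 1 library was left out (0.0559 to 0.169).

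The feedback genes are induced by TGF-beta signalling and act against it. Smad7 encodes an inhibitory SMAD that blocks the type I receptor. It measured 70.6, 77.2 and 80.6 CPM in IgG and 81.6, 73.4 and 90.7 CPM in 5E1. Pmepa1, on chromosome 2 (173224458 to 173276533, minus strand), encodes a membrane protein that keeps SMAD2 and SMAD3 from the receptor. It measured 254, 237 and 224 CPM in IgG and 236, 215 and 254 CPM in 5E1. Both genes overlapped between groups, with log2 fold changes of 0.11 (95% interval -0.11 to 0.32, edgeR adjusted p 0.465) for Smad7 and -0.02 (95% interval -0.23 to 0.19, adjusted p 0.894) for Pmepa1. Neither was called in any of 15 alternatives. With library size alone, which moved the median of all genes by -0.14, the log2 fold change of Smad7 was -0.04.

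**Figure D3:**
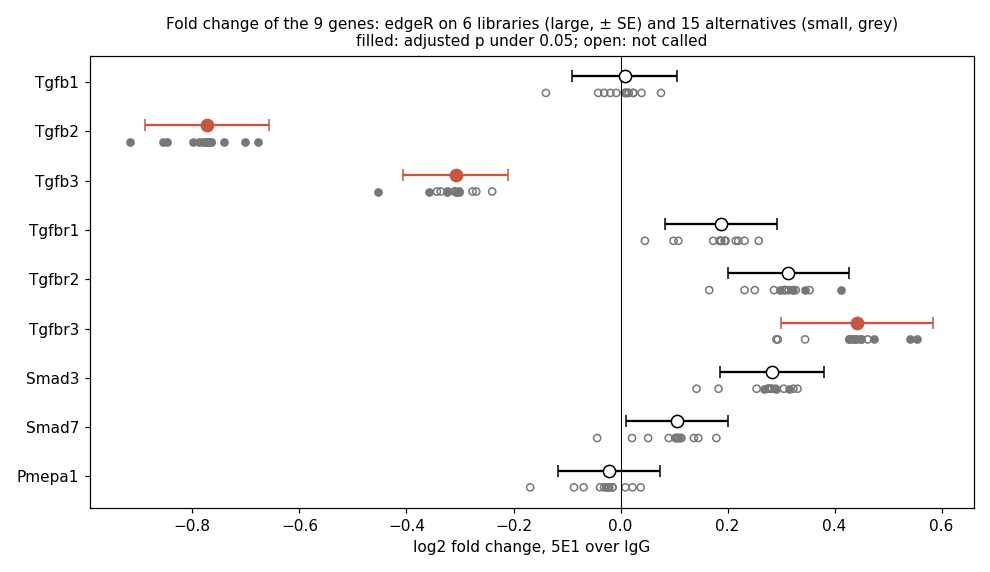
Log2 fold change of each gene, 5E1 over IgG, with its standard error from the fit of 6 libraries (large points) and under 15 alternative settings (small grey points), filled where the adjusted p was under 0.05. All 15 alternatives call Tgfb2, between -0.92 and -0.68, whereas the calls of Tgfb3 and Tgfbr3 come and go with the setting.

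For the 3 called genes, the genes with the most similar profile were found by the root mean square difference of log2 CPM over the 6 libraries, each gene centred on its own mean, among named genes of at least 5 CPM. Those nearest to Tgfb2 were Loxl2 (0.0616), Otud1 (0.0673) and St6gal1 (0.0701), whose own log2 fold changes were -0.82, -0.69 and -0.64. Those nearest to Tgfb3 were Sec24d (0.0225), Fbxo25 (0.0285) and Adcy3 (0.0339). Those nearest to Tgfbr3 were Nlgn1 (0.0524), Hipk3 (0.0538) and Slc31a2 (0.0645). Such profiles are a description of 6 libraries that fall into 2 groups.

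Genes that store and release the ligand moved both ways. Over all genes tested, 12.1% were called higher and 11.1% lower. Of 20 genes of latency and release, 7 rose and 3 fell, and the median of their log2 fold changes was 0.08. With library size alone, 6 were called higher and 5 lower. The binding protein genes moved in different directions. Ltbp1, whose product holds latent ligand in the matrix, rose from 149 ± 6.83 to 197 ± 23.7 CPM (SD, n = 3 each), and Ltbp4 rose from 1159.5 ± 131 to 1834 ± 380.2 CPM. Ltbp2, of the same family but not a binder of latent ligand, fell from 4134 ± 523 to 2609.96 ± 515 CPM. Adamtsl2, which encodes a secreted protein that binds LTBP1 and fibrillin, rose from 112 ± 8.69 to 442 ± 115 CPM.

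Activators of the latent ligand that passed the test changed in opposite directions as well. Itgb8, which pairs with Itgav to form an integrin that frees TGF-beta, fell from 39.5 ± 6.80 to 21.8 ± 1.84 CPM, -0.85 on the log2 scale (SE 0.13, edgeR adjusted p 0.00151). Itgav fell from 256 ± 27.3 to 195 ± 15.1 CPM. The other integrin genes of the list did not pass. Thbs1, a thrombospondin gene whose product can activate the ligand, rose from 2974 ± 8.74 to 5807 ± 1339 CPM, 0.97 on the log2 scale (SE 0.17, edgeR adjusted p 0.00254). Fbn2, a microfibril gene, rose by 0.72 on the log2 scale, and Fbn1, the other microfibril gene listed, measured 2798 ± 250.1 and 2989 ± 658 CPM and did not pass (adjusted p 0.717). Lrrc32 and Nrros encode membrane anchors of latent ligand, described on lymphoid, platelet and myeloid cells among others. They rose from 12.04 ± 3.20 to 20.98 ± 2.01 CPM and from 2.44 ± 0.5997 to 4.99 ± 1.18 CPM, beside the higher leukocyte marker sums given above. Which cells held these reads was not tested. Of the 10 calls, those of Itgb8, Thbs1, Fbn2 and Adamtsl2 held in all 15 alternatives. Without IgG replicate 2 the list had 4 higher and 1 lower, and the calls of Ltbp1 (edgeR adjusted p 0.0591), Ltbp2 (0.0648), Ltbp4 (0.0611), Itgav (0.0727) and Nrros (0.0736) ended. That of Lrrc32 ended without 5E1 replicate 3 (0.0536), and that of Ltbp1 without IgG replicate 3 (0.0647) or 5E1 replicate 3 (0.0611). That of Nrros also ended without IgG replicate 1 (0.0693) or 5E1 replicate 2 (0.0562).

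Of 15 genes of ligand traps and co-receptors, 14 were tested, and 4 rose and none fell by edgeR, with a median log2 fold change of 0.30. At an unadjusted p under 0.05, 0 were lower, and DESeq2 called 0 lower. Counted in either direction, the 4 calls among 14 genes are near the 23.2% called over all genes tested. All 4 were higher, where 12.1% of all genes were called higher and 11.1% lower. Nrp1, a co-receptor gene for several growth factors, rose from 287 ± 17.7 to 454 ± 60.4 CPM, and Cd109, whose membrane protein binds TGF-beta and its receptor, rose from 23.2 ± 2.16 to 34.8 ± 4.90 CPM. Among the small proteoglycans that can bind TGF-beta, Aspn rose from 1993 ± 365 to 3860.5 ± 1189 CPM and Dcn from 718 ± 240 to 1442 ± 243 CPM. Bgn, the most abundant gene of the list, measured 4103 ± 212 and 4141 ± 707 CPM (edgeR adjusted p 0.960). The call of Aspn ended without IgG replicate 3 (0.0546), and that of Dcn without IgG replicate 3 (0.0754) or 5E1 replicate 3 (0.0694), and without IgG replicate 3 the list had 2 calls. Endoglin, a co-receptor encoded by Eng and named after its value was seen, measured 389 ± 32.8 and 369.8 ± 44.0 CPM (adjusted p 0.679).

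Of 22 genes of other SMADs and their regulators, 21 were tested, 3 rose and 1 fell, and 17 did not pass. These 4 calls of 21 are near the 23.2% over all genes, and with library size alone 0 were called higher and 4 lower. Ndfip1 (0.27), an adaptor gene of NEDD4-type ubiquitin ligases, Bambi (0.46), a decoy receptor gene, and Ppm1a (0.27), a SMAD phosphatase gene, rose in log2 fold change, and the inhibitory SMAD gene Smad6 (-0.51) fell. The median of the list was -0.02. The edgeR adjusted p-values of the 4 lay between 0.0437 and 0.0497, and none of the 4 calls held in all 15 alternatives. The call of each ended without IgG replicate 1 (0.0846 to 0.134), without IgG replicate 2 (0.0785 to 0.139) and without 5E1 replicate 3 (0.0945 to 0.170). All but that of Bambi ended without IgG replicate 3 (0.125 to 0.158), all but that of Smad6 without 5E1 replicate 2 (0.0895 to 0.103), and that of Smad6 without 5E1 replicate 1 (0.120). The most abundant members, Ski, Skil and Smurf2, measured 387 ± 10.2 and 406 ± 37.8, 197 ± 24.2 and 172 ± 20.2, and 158 ± 8.31 and 188 ± 24.1 CPM, IgG first, and did not pass.

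Genes known to be raised by TGF-beta moved both ways. Of 40 listed, 15 rose, 9 fell and 16 did not pass, beside 12.1% called higher and 11.1% lower over all genes tested. The median of the log2 fold changes of the list was 0.34. The fallen genes included those of the contractile apparatus, with Cnn1 from 82.1 ± 5.97 to 41.4 ± 4.86 CPM, Tpm1 from 960.3 ± 81.2 to 578 ± 37.4 CPM and Myl9 from 347 ± 7.18 to 189.9 ± 37.8 CPM. They also included the matrix genes Tgfbi (-1.26) and Tnc (-0.89) and the transcription factor gene Snai2 (-0.72), values being log2 fold changes. Among the risen genes were Postn (1.25) and Lox (1.31), of matrix assembly and crosslinking, Cdkn1a (1.38), a cell cycle inhibitor gene, and Sphk1 (1.79), a sphingosine kinase gene. The most abundant members were Eln (0.85) and Col3a1 (0.64), which rose, and Col1a1 (0.65, edgeR adjusted p 0.118), which did not pass.

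Ctgf, long used as a readout of TGF-beta signalling and named here after its values were seen, measured 489 ± 26.0 CPM in IgG and 597 ± 49.2 CPM in 5E1, with a log2 fold change of 0.29 (edgeR adjusted p 0.0644). Of the 24 calls, 15 held in all 15 alternatives, 8 higher and 7 lower. The call of Eln ended without IgG replicate 3 (0.0506), and that of Col3a1 without IgG replicate 2 (0.164) or 3 (0.166), without 5E1 replicate 1 (0.0778) or 3 (0.148) and with the replicate block (0.0733). Without IgG replicate 3, or with library size alone, 9 target genes rose. These genes answer to other signals too, and the list was made with earlier results of these data known.

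**Figure D4:**
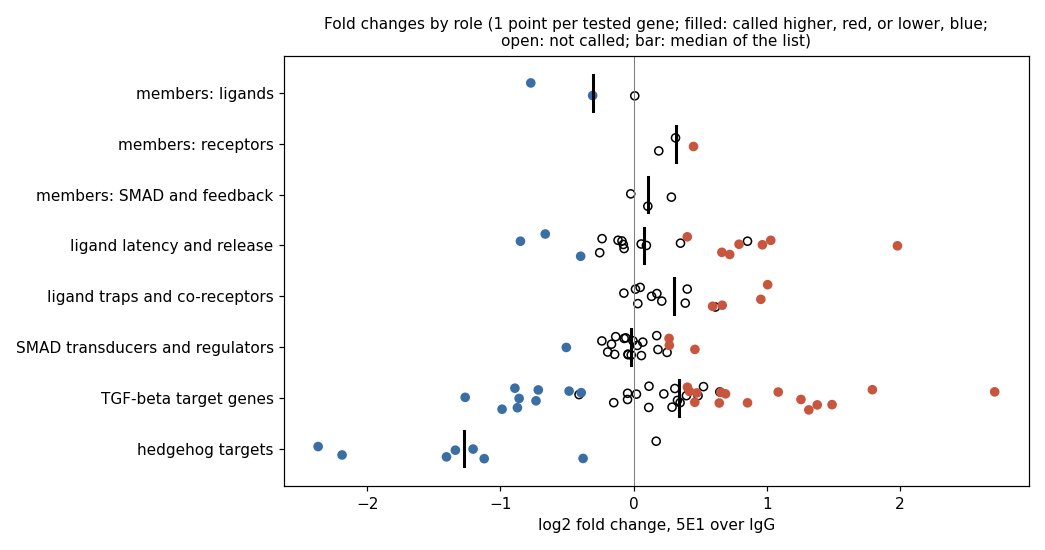
Log2 fold change, 5E1 over IgG, of every tested gene by role, filled red where called higher, filled blue where called lower, open where not called, with a bar at the median of each list. Target genes and genes of ligand latency spread to both sides, whereas 7 of 8 hedgehog targets lie on the left.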

How the data were processed

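Poly(A) RNA of sorted cells was sequenced in 6 libraries, and the authors deposited 1 file of raw read counts per gene symbol for each. The tools named in the submitters' processing notes are HTSeq 0.6.0, STAR 2.5.0c, DESeq2 1.10.0, Picard 1.126, R 3.5.1 and bedtools 2.17.0, on mm10. Annotation, strand setting and treatment of duplicates: not given in the sources used here. Without a stated strand setting, genes whose exons overlap another gene (Tgfb2 by 124, Tgfb3 by 420 and Tgfbr3 by 297 bases) may hold or lack shared reads. The 5 HTSeq summary lines, 36.4% to 54.7% of a library's reads, were left out.

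Groups and replicate numbers came from the titles. Genes were kept with filterByExpr (minimum count 10, minimum total 15), scaled by TMM (trimmed mean of M-values) and modelled with edgeR 4.0.16 in R 4.3.3 (robust glmQLFit, then glmQLFTest, with group alone in the model). Tests were two-sided, with Benjamini-Hochberg adjustment over 16198 genes and a threshold of 0.05. The procedure was tested on simulated data. CPM are given on TMM-scaled library sizes. Log2 fold changes use a prior count of 0.125, the SE is the coefficient over the square root of F, and 95% intervals use the fit's total degrees of freedom. Lengths are the union of exons in GENCODE M21 (GRCm38), which includes rare isoforms. The lowest count of a member in any library was 550 reads. Shares were compared by two-sided exact permutation tests over libraries.

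Alternatives were DESeq2 1.42.0, voom of limma 3.58.1, RLE factors, library size alone, all genes with a read, genes at 5 CPM or more in 3 libraries, estimation that is not robust, a replicate block, a term for the 2 libraries with almost no Y-linked reads, and each library left out. The named genes are the 9 members, hedgehog targets, and in each list up to 10 called genes in order of p and the 3 most abundant. A gene of the target list is not reported here by name. Members and lists were chosen with earlier results of these data known. All pairs of replicates differed by more than sampling noise.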

Additional observations from a re-analysis of the deposited data

How the results depend on the processing

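Of the 9 genes, Tgfb2 kept its call in all 15 alternatives and Tgfb1, Tgfbr1, Smad7 and Pmepa1 stayed uncalled in all 15. The log2 fold change of Tgfb3 missed the threshold with RLE size factors (-0.30), a filter at 5 CPM (-0.28), the replicate block (-0.31) and a Y-linked term (-0.31), and ran from -0.36 to -0.24 with 1 library left out. That of Tgfbr3 missed it with library size alone (0.29), limma-voom (0.43), no robust estimation (0.44) and the replicate block (0.43), and ran from 0.29 to 0.55 with 1 library left out. Tgfbr2 and Smad3 passed with DESeq2 (0.32 and 0.29), no low-count filter (0.30 and 0.27) and the filter at 5 CPM (0.34 and 0.31), and Tgfbr2 ran from 0.23 to 0.41 with 1 library left out. So 3 members were called higher with DESeq2, no low-count filter or the filter at 5 CPM, 0 with library size alone, limma-voom, no robust estimation or the replicate block, and 0 to 2 with 1 library left out. The number called lower was 1 with RLE size factors, the filter at 5 CPM, the replicate block or the Y-linked term, and 1 to 2 with 1 library left out. Over all genes, library size alone gave 1312 higher and 3274 lower in place of 1966 and 1791. With 1 library left out, 2305 to 3704 genes were called, 1221 to 1885 higher and 1073 to 1819 lower.

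With library size alone, 5 latency genes and 4 SMAD regulators were lower, 0 SMAD regulators and 9 target genes higher. SMAD regulators called higher numbered 1 with no low-count filter, no robust estimation or the replicate block, and those called lower 0 with the filter at 5 CPM or the Y-linked term. With 1 library left out, 4 to 7 latency genes were higher and 1 to 3 lower, 2 to 6 traps and co-receptors higher, 0 to 4 SMAD regulators higher and 0 to 1 lower, and 9 to 15 target genes higher. The Tgfb1 share was 1.69 percentage points higher in 5E1 without division by length, against 1.27 with it. The cause of these changes was not tested. Replicate numbers do not pair libraries by any label, and deviations of same-numbered libraries correlated at -0.14, -0.01 and -0.07 across genes. Without replicate 1, 2 or 3 of a group, that group has 2 libraries.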
